A study of Homo sapiens with 36 samples.

Results

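The 2 siRNAs used to deplete NFYB, one from Dharmacon and one from Ambion, were set against each other to find the genes whose level depended on which siRNA the cells had received. Every array labelled with either siRNA was taken: 9 arrays with NFYB (Dharmacon) siRNA and 9 with NFYB (Ambion) siRNA, 18 of the 36 arrays of the series, with 3 arrays per siRNA at 0 h, 4 h and 8 h of OHT. The cells of all groups were U2OS, a human osteosarcoma line, and carried ER-HA-E2F1, an HA-tagged E2F1 joined to the ligand-binding part of the estrogen receptor. Serum was withdrawn 18 h after transfection for 24 h, and cells were then collected at once (0 h) or kept in 80 nM OHT, 4-hydroxytamoxifen, for 4 h or 8 h. The other 18 arrays, 9 with a Dharmacon and 9 with a Sigma negative control siRNA at the same times, served as the background, so that the Ambion siRNA had no control siRNA of its own supplier. All groups at 4 h and 8 h had OHT, and effects of time, of OHT itself and of active E2F1 cannot be told apart. The 3 arrays of a group are biological replicates by the study's account, with no further word on how separate the cultures were, and the p-values measure the spread between these arrays.

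NFYB is one of the 3 subunits of NF-Y, a trimer of NFYA, NFYB and NFYC that binds the CCAAT box found in many promoters. NFYA carries the part that reads the DNA, and NF-Y is known for its part in the transcription of cell cycle, lipid synthesis, chaperone and collagen genes. An siRNA is loaded into an Argonaute protein, and its guide strand directs cleavage of the matching mRNA. The short seed at the start of the guide can also lower other mRNAs by partial pairing in the manner of a microRNA, which is why a knockdown is commonly made with more than 1 siRNA. OHT moves the ER-E2F1 fusion into the nucleus, where E2F1 activates genes of S phase and of apoptosis.

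Expression was read on Affymetrix gene expression arrays as MAS5 signals, linear intensities that the authors had scaled to a common trimmed mean on each array. Of the 22277 probe sets on the array, 22215 were tested, all but 62 control probe sets, and 11963 genes were counted by their brightest probe set. Array medians lay between 100.5 and 113.8 with NFYB (Dharmacon), 105.4 and 114.7 with NFYB (Ambion), and 103.4 and 119.7 with the control siRNAs. The 3'/5' signal ratio of GAPDH, a sign of RNA integrity, ran from 0.935 to 1.21, from 0.990 to 1.18 and from 1.04 to 1.17 in the same order of groups, and that of ACTB from 3.31 to 4.06, from 2.75 to 4.69 and from 2.55 to 4.04. Arrays of 1 group correlated at 0.951 to 0.962 over the log2 signals of either NFYB siRNA. Replicate 2 of NFYB (Dharmacon) at 4 h correlated at up to 0.954 with its own group and at 0.955 with an array of another. VIM and SPARC, mesenchymal genes of an osteosarcoma line, had signals of at least 12861 and 5973 on every NFYB siRNA array, while PTPRC of leukocytes reached at most 26.2, CDH1 of epithelium 37.6 and CDH5 of endothelium 15.1. EPCAM, also of epithelium, read 251 to 475 on these arrays, and RUNX2, an osteoblast factor, reached at most 36.5. In these bulk cultures fewer cells with a transcript and less of it per cell cannot be told apart.

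NFYB itself was low with both siRNAs, and lower with the Dharmacon one. The array has 3 probe sets for it. The third read 20.9, 32.4 and 25.3 at 0 h, 45.9, 46.8 and 47.4 at 4 h and 57.5, 38.7 and 34.1 at 8 h with NFYB (Dharmacon), against 39.3, 43.3 and 70.0 at 0 h, 111, 103 and 89.7 at 4 h and 102, 87.7 and 109.5 at 8 h with NFYB (Ambion). The 6 control siRNA arrays of each time had a lowest, median and highest signal of 133, 241 and 318 at 0 h, 481, 518 and 578 at 4 h and 703, 788 and 813 at 8 h. At each time all Dharmacon arrays lay below all Ambion arrays, and all of these below the control arrays. Averaged over the 3 times the log2 difference between the NFYB siRNAs was -1.09 ± 0.11 (SE, limma, adjusted p = 1.01e-08) on this probe set. The second probe set gave -0.72 ± 0.10 (adjusted p = 9.42e-07) and the first -0.59 ± 0.11 (adjusted p = 2.09e-04). Against the pooled controls NFYB was 12.2-fold lower with the Dharmacon and 5.71-fold lower with the Ambion siRNA on the third probe set. The knockdown read less deep on the others. With both NFYB siRNAs pooled, the log2 difference from the controls was -3.06 on the third, -2.28 on the second and -1.99 on the first. The depth of NFYB loss thus differed along with the siRNA. In the differences below, effects of that depth and of other properties of the siRNA cannot be told apart.

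No change of the NFYB difference with time was called. On the first probe set the signals were 55.7, 65.9 and 67.7 at 0 h, 57, 111 and 80.2 at 4 h and 86.8, 74.1 and 116 at 8 h with NFYB (Dharmacon), against 74.6, 53.9 and 81.7 at 0 h, 125, 145 and 159 at 4 h and 117, 187 and 179 at 8 h with NFYB (Ambion). The groups overlapped at 0 h, where the log2 difference was -0.13 (adjusted p = 0.802) and the 95% interval ran from -0.53 to 0.26, and were separate at 4 h and 8 h, with -0.84 (adjusted p = 0.00492) and -0.80 (adjusted p = 0.00732). In control siRNA cells NFYB was high after OHT, with 389 to 491 at 4 h and 579 to 717 at 8 h against 161 to 203 at 0 h on this probe set, and with either NFYB siRNA no array reached the control range of its own time. The change of the difference from 0 h to 8 h was -0.67 (adjusted p = 0.215) on the first, -0.16 (adjusted p = 0.822) on the second and -0.30 (adjusted p = 0.672) on the third probe set, and that to 4 h was -0.70 (adjusted p = 0.366), -0.10 (adjusted p = 0.948) and -0.18 (adjusted p = 0.916).

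The partner subunits moved less. NFYA, the DNA-reading subunit, was higher than with the pooled controls with both siRNAs, by 1.01 with NFYB (Dharmacon) and 1.06 with NFYB (Ambion) on the log2 scale, and the difference between the siRNAs was -0.05 with a 95% interval of -0.17 to 0.07 (adjusted p = 0.665). NFYC, which pairs with NFYB, was 0.80 above the controls with NFYB (Dharmacon) and 0.56 above them with NFYB (Ambion). Its difference between the siRNAs was 0.24 (adjusted p = 0.00129), with the same sign and a call on 4 of 4 NFYC probe sets. Both columns of values set against the pooled controls share those 18 control arrays.

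**Figure D1:**
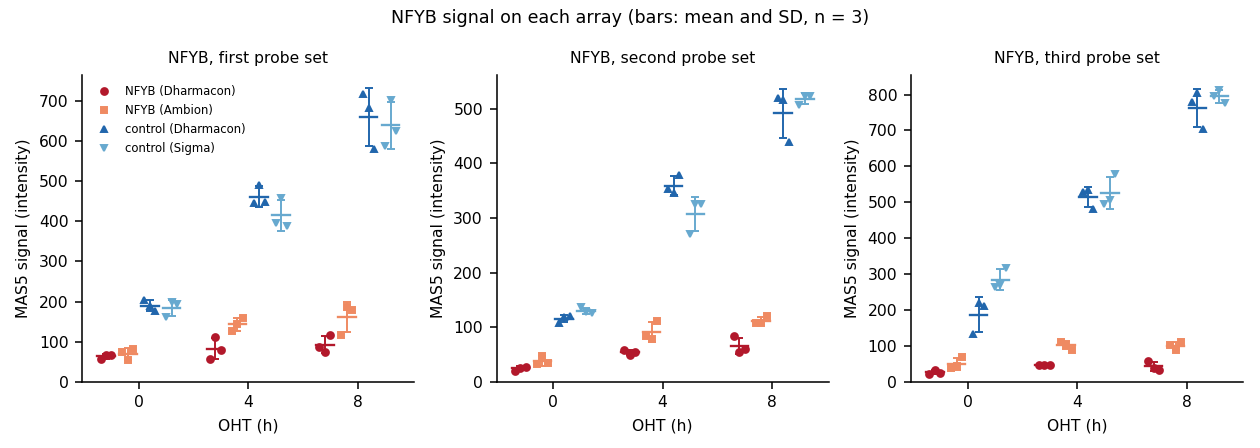
MAS5 signal (vertical axis) of the 3 NFYB probe sets on each array at 0 h, 4 h and 8 h of OHT (horizontal axis) for NFYB (Dharmacon), NFYB (Ambion), control (Dharmacon) and control (Sigma) siRNA; bars are mean and SD, n = 3. On the second and the third probe set the 3 Dharmacon arrays lie below the 3 Ambion arrays at each time, and on the first they overlap at 0 h.

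Across the array, NFYB (Dharmacon) against NFYB (Ambion) gave 822 probe sets higher and 1018 lower at 0 h, 704 and 1059 at 4 h, and 816 and 1122 at 8 h (limma, adjusted p under 0.05). These were 8.28%, 7.94% and 8.72% of the probe sets tested. The mean over the 3 times, which uses all 18 arrays, had 1628 higher and 2165 lower, or 3793 called and 17.1% of all tested. Most of these differences were small: their median absolute size was 0.307 on the log2 scale, and 70 of the called probe sets were at least 2-fold higher and 131 at least 2-fold lower. At 8 h the count fell to 1073 without replicate 2 and to 1156 without replicate 3 of NFYB (Ambion) at 8 h.

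The control siRNAs differed from each other in more probe sets than the NFYB siRNAs did. Control (Dharmacon) against control (Sigma) gave 3093, 2969 and 2783 called probe sets at 0 h, 4 h and 8 h (13.9%, 13.4% and 12.5%) and 5696 in the mean of the 3 times (25.6%). The arrays of that comparison are not shared with the NFYB siRNA comparison. Across 13329 probe sets in the upper 60% by signal the correlation of these differences was 0.00401, which is a correlation across genes and not across replicates. Of the 3793 probe sets called between the NFYB siRNAs, 933 (24.6%) were also called between the control siRNAs with the same sign and 1001 (26.4%) with the opposite sign, which are 16.4% and 17.6% of the calls between the control siRNAs. The NFYB siRNA difference minus the control siRNA difference was called for 4964 probe sets (22.3%).

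A smaller set of genes differed between the NFYB siRNAs throughout. The differences at 0 h and 4 h correlated at 0.492 over the upper 60% of probe sets, those at 4 h and 8 h at 0.399, and those at 0 h and 8 h at 0.306. For the control siRNAs the same correlations were 0.612, 0.6 and 0.61. Of 3887 probe sets called at 1 or more times, 448 were called at all 3 times with 1 sign, 176 higher (142 genes) and 272 lower (228 genes). For 993 probe sets (4.47% of those tested) the 3 Dharmacon arrays lay on the same side of the 3 Ambion arrays at each time, 403 above and 590 below. The control siRNAs separated 2011 probe sets in this way (9.05%).

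AOX1, an aldehyde oxidase, had the greatest increase with NFYB (Dharmacon) among the genes in the upper 60% by signal whose arrays did not overlap at any time. Its signals were 1577, 1538 and 1595 at 0 h, 1413, 1099 and 1108 at 4 h and 1029.5, 1025 and 957 at 8 h with NFYB (Dharmacon), against 666, 805 and 765 at 0 h, 379, 421 and 504 at 4 h and 333, 365 and 458 at 8 h with NFYB (Ambion), and the lowest, median and highest control arrays had 759, 859 and 908 at 0 h, 412, 478 and 579 at 4 h and 364, 439.7 and 476 at 8 h. All Dharmacon arrays were above all Ambion and control arrays of their time, while the Ambion arrays overlapped the controls at each time. The log2 difference between the siRNAs was 1.32 ± 0.07 in the mean of the 3 times, 2.49-fold, with an adjusted p of 7.60e-16. SERPINB7, a serine protease inhibitor, had 512, 476 and 459 at 0 h, 352, 444 and 483 at 4 h and 344, 216 and 319 at 8 h with NFYB (Dharmacon) and 215, 205 and 252 at 0 h, 141, 124 and 152 at 4 h and 104, 125 and 162 at 8 h with NFYB (Ambion). It was 1.30 ± 0.10 higher (adjusted p = 9.95e-12), and its level with NFYB (Ambion) differed from the pooled controls by 0.00.

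TGM2, the tissue transglutaminase that crosslinks matrix proteins, rose with both siRNAs and further with the Dharmacon one. It read 3277, 3648 and 3176 at 0 h, 2339, 2214 and 2353 at 4 h and 1582, 1597 and 1526 at 8 h with NFYB (Dharmacon), 1884, 1765 and 1931 at 0 h, 1082, 1117 and 1228 at 4 h and 867, 923 and 940.4 at 8 h with NFYB (Ambion), and 931, 1141 and 1311 at 0 h, 645, 802 and 881 at 4 h and 507, 548 and 605 at 8 h as lowest, median and highest control arrays. The 3 sets of arrays did not overlap at any time. Against the pooled controls the log2 differences were 1.55 and 0.66, and between the siRNAs 0.88 ± 0.04 (adjusted p = 7.60e-16). ALPL, the alkaline phosphatase of mineralising bone cells, was higher by 1.02 ± 0.14 (adjusted p = 2.29e-06), with 122, 167 and 205 as lowest, median and highest of the 9 Dharmacon arrays and 54.5, 89.2 and 113 of the 9 Ambion arrays. Its difference from the pooled controls was 1.17 (adjusted p = 5.69e-09) with NFYB (Dharmacon) and 0.15 (adjusted p = 0.499) with NFYB (Ambion).

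In other genes the Ambion siRNA lay below the controls and the Dharmacon siRNA nearer to them. FBXL15, an F-box protein of ubiquitin ligases, differed by 1.12 between the siRNAs, with 0.08 for NFYB (Dharmacon) and -1.04 for NFYB (Ambion) against the pooled controls. ZCCHC2, a zinc finger protein, differed by 0.97, with 0.00 and -0.97 for the same siRNAs. H2BC21, a gene of histone H2B, differed by 0.97, with -0.24 for NFYB (Dharmacon) and -1.21 for NFYB (Ambion); probes for histone genes may bind transcripts of near-identical copies. The remaining genes among the 12 with the greatest increase and no overlap at any time were RXYLT1, which adds xylose to dystroglycan (1.16), MFAP5 of elastic microfibrils (1.17), the actin regulator MICAL2 (1.12), TMEM45A (1.08), the aminopeptidase AOPEP (1.04) and C6orf15 (1.02). All of these passed the test, but for MICAL2 a pair of brighter probe sets gave 0.13 and 0.23 and did not (adjusted p = 0.0829 and 0.0709).

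For some genes the control siRNAs differed in the same direction and by a similar or greater amount. API5, a nuclear inhibitor of apoptosis, had 1304, 1276 and 1481 at 0 h, 1125, 1248 and 1189 at 4 h and 1266, 1243 and 1307 at 8 h with NFYB (Dharmacon), against 793, 905 and 867 at 0 h, 779, 777 and 812 at 4 h and 1049, 1037 and 969 at 8 h with NFYB (Ambion). The arrays did not overlap at any time, and the difference was 0.52 ± 0.04 (adjusted p = 8.87e-12), with 3 of its 4 probe sets called higher. Between the control siRNAs API5 differed by 0.47 ± 0.04, and the NFYB siRNA difference minus the control siRNA difference was 0.05 (adjusted p = 0.574). The study names API5 and reports it as lower after NFYB knockdown. TGFBI, a secreted matrix protein induced by TGF-beta, was 0.91 higher with NFYB (Dharmacon) than with NFYB (Ambion) and 1.26 higher with control (Dharmacon) than with control (Sigma). For MFAP5 these values were 1.17 and 1.02, for C6orf15 1.02 and 1.14, and for KRT8, a keratin of simple epithelia, 0.73 and 0.88. The part of the supplier in these differences was not tested.

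FSTL1, which encodes a secreted follistatin-like glycoprotein, had the smallest adjusted p of the 12 genes with the greatest decrease and no overlap at any time. Its signals were 1540.3, 1265 and 1248 at 0 h, 1095, 1051 and 1203 at 4 h and 1022, 843 and 1083 at 8 h with NFYB (Dharmacon), against 3030.2, 2957 and 3129 at 0 h, 2625, 2581 and 2876 at 4 h and 2446, 2137 and 2266 at 8 h with NFYB (Ambion), and 2901, 4181 and 5169 at 0 h, 2663, 3328 and 4460.3 at 4 h and 2153, 2982 and 4245 at 8 h as lowest, median and highest control arrays. All Dharmacon arrays lay below every Ambion and control array of their time, and the Ambion arrays overlapped the controls at each time. The log2 difference was -1.22 ± 0.05, 2.33-fold (adjusted p = 3.84e-17). The control siRNAs differed the other way, by 0.67, and with that subtracted the difference was -1.90 (adjusted p = 2.66e-18). CTSC, the lysosomal protease cathepsin C, had 781, 815 and 745 at 0 h, 525, 629 and 517 at 4 h and 382, 347 and 324 at 8 h with NFYB (Dharmacon), against 1328, 1694 and 1626 at 0 h, 1159, 1291 and 1048 at 4 h and 1022, 913 and 1153 at 8 h with NFYB (Ambion). No Dharmacon array reached the Ambion range of its time, and the difference was -1.20 ± 0.08 (adjusted p = 4.53e-13), with -1.27 for NFYB (Dharmacon) and -0.08 for NFYB (Ambion) against the pooled controls.

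CRYAB and TNFRSF11B moved in opposite directions with the NFYB siRNAs. CRYAB, a small heat shock protein, read 566, 531 and 459 at 0 h, 427, 415 and 479.7 at 4 h and 305, 390.5 and 377 at 8 h with NFYB (Dharmacon), 1919, 1567 and 1464 at 0 h, 1153, 1081 and 903 at 4 h and 805, 725 and 842 at 8 h with NFYB (Ambion), and 692, 1029 and 1432 at 0 h, 567, 676 and 919 at 4 h and 417, 459 and 557 at 8 h as lowest, median and highest control arrays. Each Dharmacon array was below all control arrays of its time and each Ambion array was above all of them at 0 h and 8 h. Against the pooled controls CRYAB fell by 0.67 with NFYB (Dharmacon) and rose by 0.68 with NFYB (Ambion), and the siRNAs differed by -1.35 ± 0.07 (adjusted p = 4.54e-15). TNFRSF11B, the decoy receptor osteoprotegerin that binds RANKL and TRAIL, was 1157, 1265 and 1139.6 at 0 h, 156, 116 and 121 at 4 h and 32.9, 56 and 45.9 at 8 h with NFYB (Dharmacon) and 1962, 1729 and 1821 at 0 h, 468, 377 and 436 at 4 h and 173, 169 and 123 at 8 h with NFYB (Ambion), a difference of -1.38 ± 0.11 (adjusted p = 1.17e-11). The Dharmacon arrays were below the Ambion arrays at each time, and the values against the pooled controls were -0.50 (adjusted p = 5.45e-05) and 0.88 (adjusted p = 9.43e-09).

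COL3A1, the chain of type III collagen, was below the controls with both siRNAs and lower with the Dharmacon one. It had 124, 124 and 135 at 0 h, 105, 77.7 and 95.8 at 4 h and 89.5, 84.1 and 80.5 at 8 h with NFYB (Dharmacon), 273, 246 and 286 at 0 h, 159, 174 and 237 at 4 h and 187, 154 and 156 at 8 h with NFYB (Ambion), and 419, 476 and 549.6 at 0 h, 289, 336 and 509.7 at 4 h and 201, 262 and 319.6 at 8 h as lowest, median and highest control arrays. No 2 of these sets overlapped at any time. The siRNAs differed by -1.02 ± 0.10 (adjusted p = 1.79e-09), and another of its probe sets, picked out after its values were seen, gave -1.11. FADS2, a fatty acid desaturase, was likewise -1.81 from the pooled controls with NFYB (Dharmacon) and -1.02 with NFYB (Ambion), with a difference of -0.79 ± 0.14 (adjusted p = 8.59e-05) and no overlap of the siRNAs at any time.

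The other genes among the 12 with the greatest decrease were of several kinds. DRC11, a protein of the ciliary dynein regulatory complex, differed by -1.59, with 89.1, 82.9 and 73.9 at 0 h, 29.4, 32.8 and 31 at 4 h and 16.2, 21.2 and 9.87 at 8 h with NFYB (Dharmacon) and 160.4, 155 and 146 at 0 h, 129, 114 and 114 at 4 h and 57.8, 49.8 and 65.7 at 8 h with NFYB (Ambion). TTYH1, a chloride channel, differed by -1.61, the membrane estrogen receptor GPER1 by -1.46, the zinc exporter SLC30A1 by -1.41, the acetylcholine receptor subunit CHRNA9 by -1.38, TMEM184C by -1.31 and the transcription factor ZBTB20 by -1.24. The brightest ZBTB20 probe set gave a smaller difference of -0.57 (adjusted p = 4.08e-06). Medians over the 9 arrays were 48.7 with NFYB (Dharmacon) and 130.3 with NFYB (Ambion) for TTYH1, and 29.8 and 72.6 for GPER1, beside the array medians of 100.5 to 114.7. AKR1C2 and AKR1C1, aldo-keto reductases that act on steroids, differed by -1.49 and -1.26. Their probe sets may bind transcripts of both genes, and the control siRNAs differed in the same direction, by -0.81 and -1.05.

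**Figure D2:**
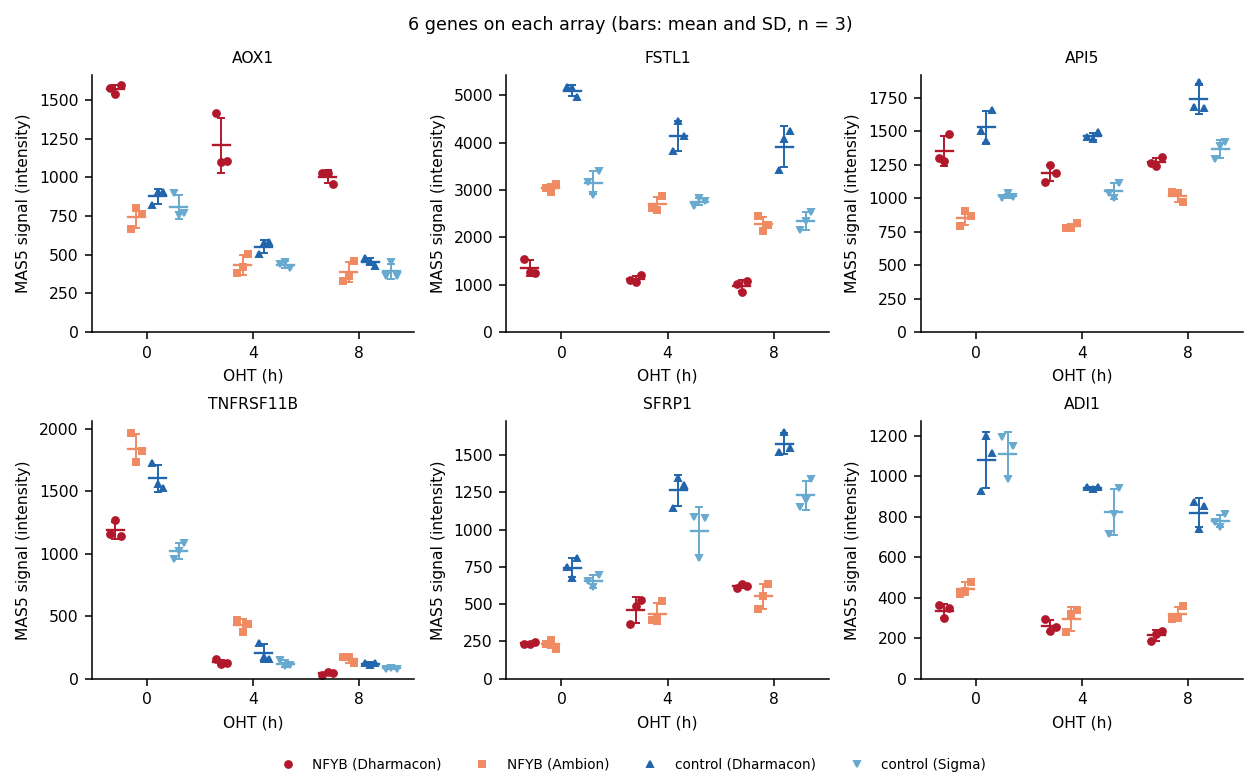
MAS5 signal (vertical axis, from 0) of AOX1, FSTL1, API5, TNFRSF11B, SFRP1 and ADI1 on each array at 0 h, 4 h and 8 h of OHT (horizontal axis), with mean and SD of the 3 arrays of each siRNA. AOX1 is above and FSTL1 below all other arrays of the same time with NFYB (Dharmacon), API5 is higher with NFYB (Dharmacon) than with NFYB (Ambion) and with control (Dharmacon) than with control (Sigma), and for SFRP1 the NFYB siRNAs overlap below the controls.

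Other genes moved with both siRNAs, some without a called difference between them and some with a difference in degree. SFRP1, a secreted antagonist of Wnt ligands that the study names, had 235, 233 and 249 at 0 h, 364, 491 and 526 at 4 h and 605, 632 and 623 at 8 h with NFYB (Dharmacon), 234, 256 and 201 at 0 h, 390.3, 398 and 518 at 4 h and 468, 553 and 636 at 8 h with NFYB (Ambion), and 612, 688 and 806 at 0 h, 808, 1117 and 1346 at 4 h and 1151, 1432 and 1655 at 8 h as lowest, median and highest control arrays. The siRNAs overlapped at each time and every one of their arrays was below the controls. The difference was 0.10 with a 95% interval of -0.05 to 0.26 (adjusted p = 0.417), set against -1.33 and -1.44 relative to the pooled controls. PRKCZ, an atypical protein kinase C, differed by 0.05 (-0.13 to 0.22, adjusted p = 0.809) and was -0.96 from the controls with NFYB (Dharmacon) and -1.01 with NFYB (Ambion). SIVA1, a proapoptotic protein, differed by 0.05 (-0.04 to 0.14, adjusted p = 0.533) and was 0.54 and 0.49 above the controls. MALT1, a paracaspase of NF-kB signaling, differed by 0.08 (-0.05 to 0.20, adjusted p = 0.468). A dimmer MALT1 probe set differed by -0.25 (adjusted p = 0.0448). For FOLH1, a folate hydrolase that the study names, the probe set that lists this gene alone was dim and its 95% interval wide (-0.97 to 0.78); probe sets that list FOLH1B as well were not assigned to it.

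Genes that moved with both siRNAs and further with 1 of them were found in both directions. ADI1, an enzyme of methionine salvage, had 363, 298 and 347 at 0 h, 295, 237 and 254 at 4 h and 184, 221 and 237 at 8 h with NFYB (Dharmacon), 420.0, 434 and 480.3 at 0 h, 229, 320.1 and 341 at 4 h and 293, 307 and 359 at 8 h with NFYB (Ambion), and 929, 1133 and 1201 at 0 h, 715, 940.0 and 947 at 4 h and 738, 795 and 875 at 8 h as lowest, median and highest control arrays. All NFYB siRNA arrays were below the controls, and the siRNAs overlapped at 4 h only. The values against the pooled controls were -1.79 and -1.40, and the siRNAs differed by -0.38 ± 0.07 (adjusted p = 2.65e-04). NUDT2, which hydrolyses diadenosine tetraphosphate, had 824, 858 and 746 at 0 h, 1007, 887 and 1164 at 4 h and 1039, 1396 and 1157 at 8 h with NFYB (Dharmacon), 747, 632 and 725 at 0 h, 791, 697 and 591 at 4 h and 974, 906 and 843 at 8 h with NFYB (Ambion), and 372, 397 and 537 at 0 h, 189, 333 and 345 at 4 h and 167, 299.7 and 361 at 8 h as lowest, median and highest control arrays. It was above the controls on every NFYB siRNA array, by 1.64 and 1.25, and the siRNAs differed by 0.39 ± 0.10 (adjusted p = 0.00591). LRRC17 (-1.73 and -1.41 against the pooled controls, difference -0.32 (adjusted p = 0.017)) and the matrix protease MMP3 (1.40 and 1.17, difference 0.23 (adjusted p = 0.0226)) also moved in 1 direction with both, and CDHR1, a cadherin-related protein, differed by -0.14 (-0.38 to 0.11). ADI1, NUDT2, LRRC17, MMP3 and CDHR1 were chosen after their values were seen.

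To set both NFYB siRNAs against controls that share no arrays, NFYB (Dharmacon) was compared with control (Dharmacon) and NFYB (Ambion) with control (Sigma). The first comparison called 5743 probe sets (25.9%) and the second 4178 (18.8%). They had 1123 calls of the same sign in common, which are 19.6% of the first and 26.9% of the second, and 984 of opposite sign, which are 17.1% and 23.6%. The correlation of the log2 differences over the upper 60% of probe sets was 0.076. With the controls exchanged, 5450 (24.5%) and 4704 (21.2%) were called, 1218 in common with the same sign and 1036 with opposite signs, and the correlation was 0.0703. The control siRNAs differed from each other in 5696 probe sets (25.6%). That difference enters these correlations and the calls of opposite sign, in an amount that was not tested. A stricter count took probe sets that passed against each control siRNA with each NFYB siRNA. It held 309 of the 22215 probe sets higher and 340 lower. Of the higher ones 57 were called further from the controls with NFYB (Dharmacon) and 10 with NFYB (Ambion). Of the lower ones 81 and 21 were. Over all tested probe sets 17.1% were called between the NFYB siRNAs. That difference uses the same NFYB siRNA arrays that chose these probe sets. The part of the deeper NFYB loss with NFYB (Dharmacon) in these counts was not tested.

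**Figure D3:**
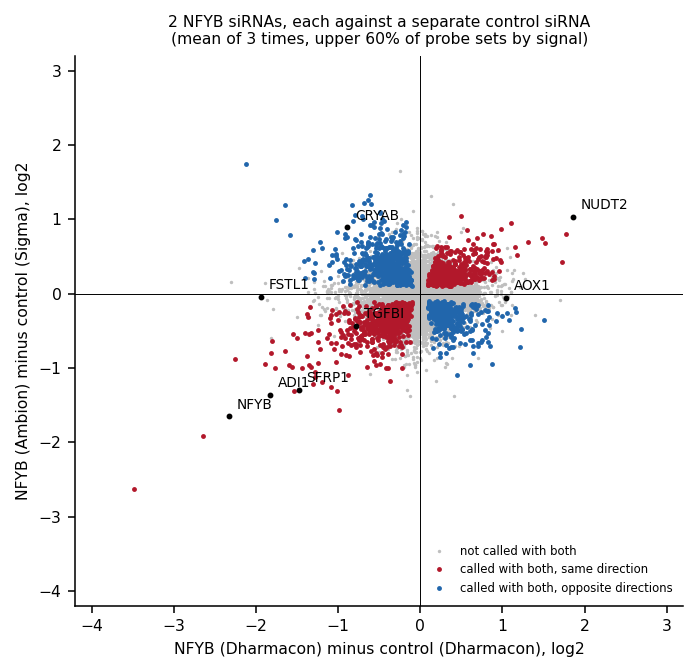
Log2 difference of NFYB (Dharmacon) from control (Dharmacon) (horizontal axis) and of NFYB (Ambion) from control (Sigma) (vertical axis), mean of 3 times, for probe sets in the upper 60% by signal; red points were called with both in the same direction, blue points with both in opposite directions. NFYB, ADI1, SFRP1 and NUDT2 lie far out in the same direction with both siRNAs, and AOX1 and FSTL1 lie far from 0 on the Dharmacon axis only.

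The probe sets called between the NFYB siRNAs were divided by their calls in these comparisons. More of all tested probe sets were called with NFYB (Dharmacon) than with NFYB (Ambion), 25.9% against 18.8%, and 24.5% against 21.2% with the controls exchanged. Those shares include probe sets called with both. Of the 1628 probe sets higher with NFYB (Dharmacon), 594 (36.5%) were called for NFYB (Dharmacon) alone against its control, 301 (18.5%) for NFYB (Ambion) alone, 180 for both with the same sign, 235 for both with opposite signs and 318 for neither. Of the 2165 lower, these counts were 799 (36.9%), 266 (12.3%), 248, 369 and 483. With the controls exchanged the Dharmacon siRNA alone accounted for 447 (27.5%) of the first and 833 (38.5%) of the second, and the Ambion siRNA alone for 290 (17.8%) and 299 (13.8%). Each of these counts shares its NFYB siRNA arrays with the difference that chose the probe sets.

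NF-Y binds CCAAT, and its letters were counted on both strands (CCAAT or ATTGG) in RefSeq promoters of GRCh38.p14, 250 bases before to 50 after the start of a gene. Of the genes in the upper 60% by signal, 83.1% matched a promoter, and 37.5% of these promoters (2484 of 6620) held the motif. The share was 36.5% (320 of 877) for genes higher and 39.5% (443 of 1122) for genes lower with NFYB (Dharmacon) than with NFYB (Ambion). Genes called with both siRNAs against separate controls had it in 51.5% (169 of 328) when both were lower and 48.4% (134 of 277) when both were higher, against 35.5% (175 of 493) when the siRNAs went in opposite directions, and 35.6% when NFYB (Dharmacon) alone and 39.6% when NFYB (Ambion) alone was called. With the controls exchanged the shares were 47.7% for both lower, 44.5% for both higher and 39.3% for opposite directions. These are descriptions of letters and not of binding, and no test was made of them.

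The promoters of ADI1 and NUDT2, which moved with both siRNAs, and of AOX1 and FSTL1, which moved most with NFYB (Dharmacon), are shown 5' to 3' on the strand of the gene, with CCAAT or ATTGG in capitals. ADI1 lies at chr2:3519482-3519781 on the minus strand, NUDT2 at chr9:34329319-34329618 on the plus strand, AOX1 at chr2:200585764-200586063 on the plus strand and FSTL1 at chr3:120450943-120451242 on the minus strand.
ADI1: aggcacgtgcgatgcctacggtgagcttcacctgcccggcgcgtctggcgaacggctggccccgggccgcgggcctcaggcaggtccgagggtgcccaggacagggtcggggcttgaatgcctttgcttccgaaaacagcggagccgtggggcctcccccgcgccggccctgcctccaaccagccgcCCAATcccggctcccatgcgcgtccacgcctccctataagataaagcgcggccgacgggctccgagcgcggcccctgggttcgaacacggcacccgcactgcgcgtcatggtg
NUDT2: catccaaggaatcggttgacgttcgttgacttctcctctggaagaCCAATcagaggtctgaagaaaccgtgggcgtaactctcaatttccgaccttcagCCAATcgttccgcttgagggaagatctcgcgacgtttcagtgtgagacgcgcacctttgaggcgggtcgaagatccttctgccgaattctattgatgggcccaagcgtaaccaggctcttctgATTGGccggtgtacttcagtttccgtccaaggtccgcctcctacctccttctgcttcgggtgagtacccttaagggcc
AOX1: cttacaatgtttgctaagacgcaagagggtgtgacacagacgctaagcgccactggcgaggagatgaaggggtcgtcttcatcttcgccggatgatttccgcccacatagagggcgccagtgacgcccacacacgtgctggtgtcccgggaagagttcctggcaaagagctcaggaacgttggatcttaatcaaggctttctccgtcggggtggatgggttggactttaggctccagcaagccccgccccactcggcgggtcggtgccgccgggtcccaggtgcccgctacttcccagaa
FSTL1: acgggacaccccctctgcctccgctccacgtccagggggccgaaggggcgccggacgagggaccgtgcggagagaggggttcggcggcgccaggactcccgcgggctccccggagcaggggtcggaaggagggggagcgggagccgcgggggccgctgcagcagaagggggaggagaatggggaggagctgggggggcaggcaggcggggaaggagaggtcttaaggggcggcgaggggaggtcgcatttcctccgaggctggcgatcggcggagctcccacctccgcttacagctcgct
The ADI1 window holds CCAAT once, 63 bases before the start. The NUDT2 window holds CCAAT at 205 and 151 bases and ATTGG at 28 bases before it. The letters are not in the AOX1 and FSTL1 windows. Other named genes went both ways. Of those that differed between the siRNAs, CTSC and SLC30A1 hold CCAAT, and SERPINB7 and ALPL hold neither form. Of those that moved with both siRNAs, LRRC17 holds CCAAT and CDHR1 holds ATTGG, and PRKCZ and SIVA1 hold neither form.

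Gene groups were described by how many of their measured members passed the test in the mean of the 3 times, beside 8.93% higher and 12% lower of all 11963 genes, whose median difference was -0.00498. Between the control siRNAs 11.8% of all genes were higher and 18.9% lower with the Dharmacon one. More matrix genes were called lower than higher with NFYB (Dharmacon): 20 of the 45 measured genes of the extracellular matrix were lower, 5 higher and 20 not called, with a median of -0.22. The collagen genes among them included COL11A1 (-0.72), COL5A2 (-0.62), COL1A1 (-0.50), COL6A1 (-0.50) and COL6A3 (-0.41), and SERPINH1, the collagen chaperone, was -0.54. LAMA4, a laminin chain, had the greatest decrease of the list (-1.64). It did not meet the rule of signal and no overlap for the 12 greatest decreases above. TGM2 and LUM, a small proteoglycan (0.45), were among those higher. Between the control siRNAs 17 of the 45 were higher and 12 lower with the Dharmacon one, and COL1A1 differed there by 0.61. Of 32 genes of TGF-beta and BMP signaling, 10 were lower and 2 higher, with ID1, a BMP target, at -0.41. For this list 10 genes were higher and 6 lower between the control siRNAs.

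In the lists of ER stress and of lipid synthesis, too, more genes were called lower than higher. Of 29 genes of ER stress and protein folding 14 were lower and 2 higher (median -0.17), among them DNAJB9 (-0.43), a co-chaperone, HSPA5 (-0.22), the main ER chaperone, XBP1 (-0.34) and DDIT3 (-0.53), transcription factors of the ER stress response. Of 14 genes of fatty acid synthesis 8 were lower and none higher (median -0.16), including SCD (-0.45), which makes monounsaturated fatty acids, LPIN1 (-0.45) and FASN (-0.16), the fatty acid synthase. Of 21 genes of cholesterol synthesis 7 were lower and 2 higher, with SC5D, a late enzyme of the pathway, at -0.63 and INSIG1, a brake on SREBP processing, at -0.48. The counts between the control siRNAs ran the other way for ER stress, with 11 higher and 4 lower, and for cholesterol synthesis, with 7 higher and 1 lower, and were even for fatty acid synthesis, with 3 and 3. INSIG1 differed by 0.68 between them.

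More G2/M genes were called lower than higher, by small amounts. Of 41 G2/M genes 18 were lower and 2 higher (median -0.13). CDK1, the mitotic kinase, had 3197, 4625 and 4561 at 0 h, 4734, 3988 and 3681 at 4 h and 4407, 5034 and 5578 at 8 h with NFYB (Dharmacon) and 5137, 5046 and 5325 at 0 h, 5386, 5996 and 6012 at 4 h and 6184, 6438 and 6399 at 8 h with NFYB (Ambion). The Dharmacon arrays were below the Ambion arrays at each time, by -0.40 ± 0.06 (adjusted p = 1.38e-05). The other probe sets of CDK1, both dimmer, gave 0.12 and 0.13 and were not called (adjusted p = 0.157 and 0.0877). CENPA, the centromeric histone variant, was -0.46, CENPE, a kinetochore motor, -0.36, and CCNA2, the cyclin of S phase and G2, -0.52. For CDK1, CENPE and CCNA2 the values against the pooled controls were -0.24, -0.07 and -0.35 with NFYB (Dharmacon) and 0.15, 0.28 and 0.18 with NFYB (Ambion). Genes of DNA replication and G1/S were mixed, with 8 of 49 higher, MCM7 of the replicative helicase among them (0.26), and 4 lower. Between the control siRNAs 8 G2/M genes were higher and 8 lower, and 14 genes of DNA replication and G1/S were higher and 5 lower.

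Of 43 mitochondrial ribosome genes 15 were higher with NFYB (Dharmacon), none lower and 28 not called, with a median of 0.09. MRPL3, a protein of the large subunit, read 6452, 5685 and 6055 at 0 h, 4613, 4706 and 4591 at 4 h and 4424, 4347 and 4185 at 8 h with NFYB (Dharmacon) and 4565, 4788 and 5188 at 0 h, 4144, 3754 and 4160.3 at 4 h and 3297, 3492 and 3427 at 8 h with NFYB (Ambion), without overlap at any time, and differed by 0.29 ± 0.04 (adjusted p = 4.14e-07). MRPL48 (0.38), MRPL11 (0.36) and MRPL15 (0.24), also of the large subunit, rose too. Between the control siRNAs none of these genes were higher and 24 were lower with the Dharmacon one. Of 43 oxidative phosphorylation genes 6 were higher and 1 lower, against 3 higher and 23 lower between the control siRNAs.

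Metallothioneins, small proteins that bind zinc and copper, were higher for 6 of 8 genes with a median of 0.49, and none were called between the control siRNAs. At single times 2 were called at 4 h and none at 0 h or 8 h. Against separate controls none were called with NFYB (Dharmacon), with a median of 0.04, and 5 were lower with NFYB (Ambion), with a median of -0.52. MT1X had 7520.3, 8161 and 7757 at 0 h, 9269, 4819 and 4815 at 4 h and 5935, 4946 and 4792 at 8 h with NFYB (Dharmacon) and 5862, 4968 and 5286 at 0 h, 3512, 3368 and 3625 at 4 h and 4855, 4961 and 4189 at 8 h with NFYB (Ambion), a difference of 0.49 ± 0.12 (adjusted p = 0.00451), with overlap at 8 h. The control arrays at 0 h spread from 6100 to 17686, wider than any NFYB siRNA group, and probe sets for this family can bind transcripts of several members. Of 20 heat shock chaperone genes 8 were higher, STIP1 (0.33) and CCT5 (0.33) of the cytosolic folding machinery among them, and 3 lower, CRYAB, DNAJB4 (-0.57) and HSPA13 (-0.47). The counts between the control siRNAs were much the same for these chaperones, with 7 higher and 3 lower.

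Lysosomal and amino acid response genes had more members called lower than higher. Of 29 lysosome genes 10 were lower and 1 higher (median -0.13), with CTSC and LIPA, the acid lipase (-0.50), in front. Of 24 genes of the amino acid response 10 were lower and 2 higher. WARS1, the tryptophanyl-tRNA synthetase, had 217, 204 and 196 at 0 h, 247, 196 and 179.9 at 4 h and 278, 359 and 422 at 8 h with NFYB (Dharmacon), against 544, 510.1 and 519.7 at 0 h, 405, 508 and 477 at 4 h and 617, 528 and 531 at 8 h with NFYB (Ambion). The arrays did not overlap and the difference was -1.07 ± 0.08 (adjusted p = 2.89e-12). DDIT4, an inhibitor of mTORC1, was -0.75 and SLC7A5, a carrier of large neutral amino acids, 0.54. Between the control siRNAs 10 lysosome genes were lower and 3 higher, and 18 amino acid response genes were lower with none higher, with WARS1 at -0.57 and DDIT4 at -0.57.

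Apoptosis genes moved in both directions. Of 26 proapoptotic genes 3 were higher and 6 lower: BID, a BH3-only protein, was 0.24, and PMAIP1, another, -0.43. Of 27 anti-apoptotic genes 4 were higher, API5 and BCL2A1, a BCL2 family member (0.79), among them, and 5 lower, with TNFRSF11B in front. Of 23 p53 targets 4 were higher and 6 lower, with PPM1D, the phosphatase that acts back on p53, at -0.54. More genes of each list were called between the control siRNAs. There 5 proapoptotic genes were higher and 9 lower, 7 anti-apoptotic genes higher and 8 lower, and 3 p53 targets higher and 11 lower.

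Genes that report on double-stranded RNA and on the siRNA machinery were measured as well. Of 44 interferon response genes 3 were higher and 9 lower with NFYB (Dharmacon), including BST2, a tether of virus particles (-0.85), IFI44 (-0.48) and EIF2AK2, the kinase PKR that senses double-stranded RNA (-0.26). For EIF2AK2 the difference from the pooled controls was 0.07 with NFYB (Dharmacon) and 0.33 with NFYB (Ambion). Its other probe set, nearly as bright, differed between the NFYB siRNAs by -0.05 and was not called (adjusted p = 0.666). Of 12 RNA interference genes 2 were higher and 1 lower. AGO1, an Argonaute protein that holds the guide strand, differed by 0.37 ± 0.04 (adjusted p = 3.93e-08), with -0.11 for NFYB (Dharmacon) and -0.47 for NFYB (Ambion) against the pooled controls. The control siRNAs differed for AGO1 by 0.23, and 4 interferon response genes were higher and 13 lower between them.

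Markers of other cell types showed no uniform shift. Of 14 epithelial markers 3 were higher, KRT8, KRT18 (0.59) and EPCAM (0.36), and 1 lower, OCLN (-0.37). Their summed signal was 10369 to 17140 with NFYB (Dharmacon), 6774 to 10598 with NFYB (Ambion) and 6531 to 14245 with the control siRNAs, and CDH1 stayed at or under 37.6. Of 15 leukocyte markers 1 was higher and 1 lower, and of 11 endothelial markers none was called at an adjusted p under 0.05 by limma, with 0 at an unadjusted p under 0.05 as well. Of 13 osteoblast and mesenchymal markers 5 were lower and 1 higher, with sums of 31117 to 38657 with NFYB (Dharmacon), 31426 to 41074 with NFYB (Ambion) and 31928 to 46053 with the control siRNAs. Between the control siRNAs 3 epithelial markers were higher and none lower, and 5 osteoblast and mesenchymal markers were higher and 2 lower. The part of these markers in the gene group results was not tested.

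**Figure D4:**
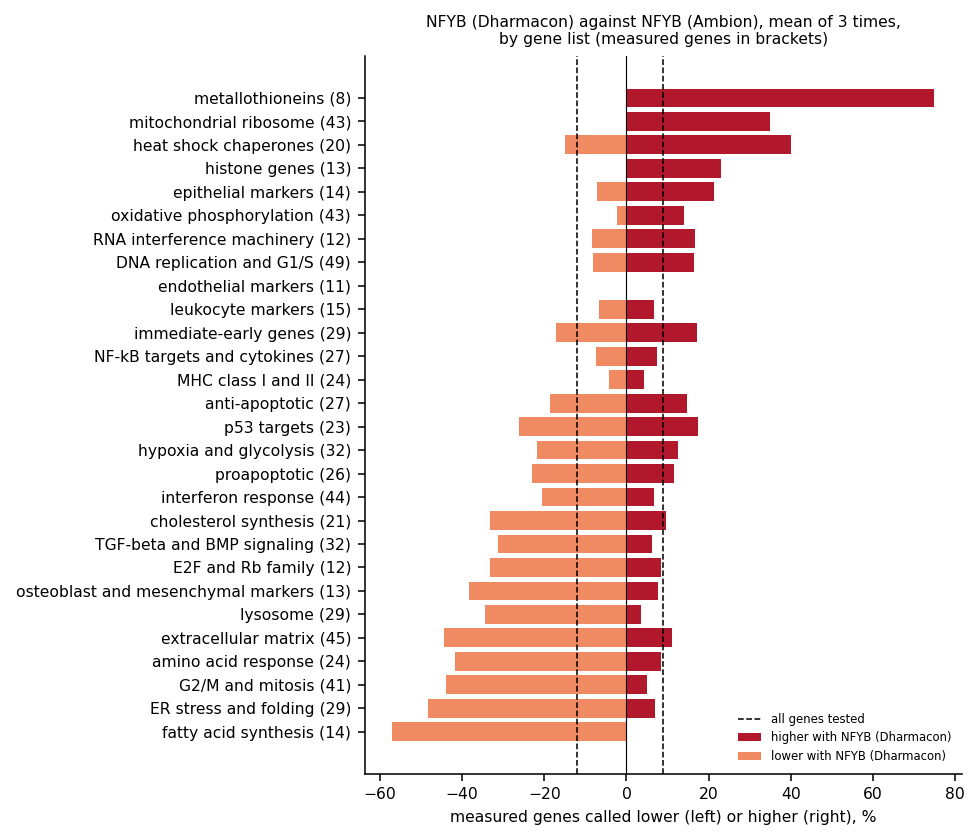
Share of measured genes in each list (number in brackets) called higher (right) or lower (left) with NFYB (Dharmacon) than with NFYB (Ambion), in percent, mean of 3 times; dashed lines mark all 11963 genes, 8.93% higher and 12% lower. Metallothioneins (6 of 8) and mitochondrial ribosome genes (15 of 43) were called higher only, and fatty acid synthesis genes (8 of 14) lower only.

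Few changes with OHT of the difference between the NFYB siRNAs were called. The median SE of such a change was 0.333 on the log2 scale, against 0.136 for the mean of the 3 times. The change of the difference from 0 h to 4 h was called for 40 probe sets in the positive and 80 in the negative direction (0.54% of those tested), and from 0 h to 8 h for 243 and 278 (2.35%). The count for 8 h rested on single arrays: it was 1201 without replicate 1 of NFYB (Dharmacon) at 0 h, 296 and 268 without replicates 2 and 3 of that group, 318 without replicate 2 of NFYB (Dharmacon) at 8 h, 319 and 268 without replicates 1 and 2 of NFYB (Ambion) at 0 h, and 268 and 285 without replicates 2 and 3 of NFYB (Ambion) at 8 h.

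In several genes a difference seen before OHT was lost after it. BCL2A1 read 299, 479.8 and 435 at 0 h, 195, 256 and 165 at 4 h and 798, 813 and 703 at 8 h with NFYB (Dharmacon), against 86.6, 122 and 124 at 0 h, 124, 134 and 117 at 4 h and 772, 976 and 858 at 8 h with NFYB (Ambion). The siRNAs were separate at 0 h and 4 h and overlapped at 8 h, when both groups were high, as were the controls (715, 898 and 1061 as lowest, median and highest). It differed by 1.86 (adjusted p = 1.57e-08) before OHT, 0.69 (adjusted p = 0.0141) after 4 h and -0.17 (adjusted p = 0.684) after 8 h. SOX4, a transcription factor of progenitor cells, read 217, 296 and 204 at 0 h, 355, 295 and 269.9 at 4 h and 275, 346 and 318 at 8 h with NFYB (Dharmacon), against 1073, 798 and 932 at 0 h, 506, 484 and 383 at 4 h and 646, 419.8 and 335 at 8 h with NFYB (Ambion). Its difference of -1.98 at 0 h became -0.58 at 4 h, a change of 1.40 (adjusted p = 0.00303), and the arrays overlapped at 8 h. The brightest SOX4 probe set had a smaller difference, -1.02 at 0 h and -0.05 at 4 h, with a change of 0.97 (adjusted p = 1.71e-05). PTX3, a pentraxin of innate immunity, was higher at 0 h (1.03 (adjusted p = 1.65e-07)) and lower at 8 h (-0.52 (adjusted p = 0.00311)), with 667, 874 and 873 at 0 h, 617, 800.3 and 621 at 4 h and 810.2, 779 and 725 at 8 h with NFYB (Dharmacon) and 388, 361 and 429 at 0 h, 666, 652 and 597 at 4 h and 949, 1146 and 1240.3 at 8 h with NFYB (Ambion), and a change from 0 h to 8 h of -1.55 (adjusted p = 1.35e-06).

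In others the difference grew. TNFRSF11B, given above, differed by -0.63, -1.71 and -1.80 at the 3 times, with changes of -1.08 (adjusted p = 0.0444) and -1.17 (adjusted p = 0.011). Its other probe set gave changes of -0.84 (adjusted p = 0.43) and -1.02 (adjusted p = 0.135), which were not called, and the call of the change to 4 h was lost in 14 of 21 alternative settings. ZBTB20 differed by -0.44, -1.72 and -1.55 at the 3 times, with signals of 616, 725 and 859 at 0 h, 136, 211 and 150.0 at 4 h and 47.4, 53 and 58.2 at 8 h with NFYB (Dharmacon) and 1068, 928 and 973 at 0 h, 634, 514 and 471 at 4 h and 126, 176 and 165 at 8 h with NFYB (Ambion). The Dharmacon arrays were the lower ones throughout. The changes of ZBTB20 were -1.28 (adjusted p = 0.0018) and -1.11 (adjusted p = 0.00465). Another ZBTB20 probe set gave -0.94 (adjusted p = 0.0256) and -1.15 (adjusted p = 0.00221), while its brightest gave -0.27 (adjusted p = 0.75) and -0.20 (adjusted p = 0.703).

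A few growth response genes changed their difference between 0 h and 4 h. Of 29 immediate-early genes 5 were called with a negative change of the difference from 0 h to 4 h and 1 with a positive one, beside 0.476% and 0.251% of all genes, with a median of -0.28 beside -0.000536 over all genes. MYC, a transcription factor of growth, had 2726, 2168 and 2238 at 0 h, 1146, 866 and 1003 at 4 h and 978, 834 and 895 at 8 h with NFYB (Dharmacon), against 1233, 1373 and 1517 at 0 h, 1373, 1331 and 1359 at 4 h and 1017, 751 and 670.0 at 8 h with NFYB (Ambion). The Dharmacon arrays were above the Ambion arrays at 0 h, below them at 4 h and overlapped them at 8 h, and the change from 0 h to 4 h was -1.23 (adjusted p = 0.00163). JUN (-0.83, adjusted p = 0.00718), FOSL1 (-0.71, adjusted p = 0.0116), DUSP1 (-0.75, adjusted p = 0.0108) and DUSP5 (-0.89, adjusted p = 0.00303) also changed in the negative direction; JUN and FOSL1 are subunits of AP-1, and DUSP1 and DUSP5 are phosphatases of MAP kinases. NR4A2, a nuclear receptor, changed in the positive direction on its brightest probe set (0.88, adjusted p = 0.0112), and its other probe sets were not called. CCN1, a matricellular protein induced by serum, differed by 0.91, -0.29 and 0.11 at 0 h, 4 h and 8 h, and was, like MYC, singled out after its values were seen. The brighter CCN1 probe set gave 0.71, -0.28 and -0.07, with a change to 4 h of -0.99 (adjusted p = 8.54e-06). In the mean of the 3 times 5 of these 29 genes were higher and 5 lower.

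**Figure D5:**
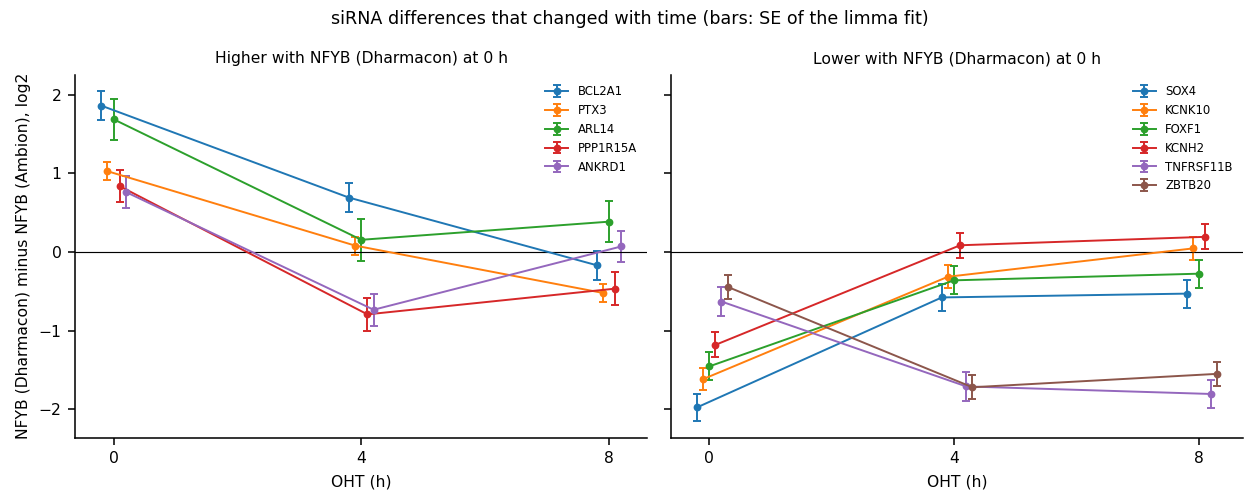
Log2 difference NFYB (Dharmacon) minus NFYB (Ambion) (vertical axis) at 0 h, 4 h and 8 h of OHT (horizontal axis) for 5 genes higher and 6 genes lower with NFYB (Dharmacon) at 0 h; bars are the SE of the limma fit. BCL2A1 and PTX3 end near or under 0, SOX4 and KCNK10 move towards 0, and TNFRSF11B and ZBTB20 move to -1.80 and -1.55 at 8 h.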

How the data were processed

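RNA of the 36 cultures was amplified, labelled and hybridised to Affymetrix gene expression arrays. The authors computed MAS5 signals in Affymetrix Expression Console (version not given in the sources used here) and deposited them as linear signal intensity values, whose trimmed mean on each array, leaving out the highest and lowest 2%, is 500. Detection calls were not used. Genes were named from GEO's platform annotation: 19064 tested probe sets name 1 gene, 1043 several and 2108 none.

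The signals were taken to log2 as they stood and modelled in R 4.3.3 (limma 3.58.1) with 1 mean per siRNA and time, that is 12 groups of 3 arrays with 24 residual degrees of freedom, and a variance trend. Tests were two-sided, adjusted by Benjamini-Hochberg over all 22215 probe sets and called under 0.05; the precision of each value is limited by the 3 arrays of a group. Differences are NFYB (Dharmacon) minus NFYB (Ambion), and intervals are at 95%. The script was tested on simulated data. Named genes were NF-Y subunits, 7 genes from the text of the study, the 12 greatest increases and decreases in the mean with no overlap at any of 3 times, the 5 greatest at each time and for each change of the difference, all in the upper 60% by signal, and up to 4 members of each list; exceptions are marked. The members and gene lists were chosen with earlier results of these data known. Alternatives tried were quantile normalization, adding 16 before the log, keeping the upper 60% by signal, no variance trend, only the groups compared, the replicate number as a block, the mean of a gene's probe sets, the methods' t-test, and leaving out each array and each replicate number. Promoters are from RefSeq, GRCh38.p14. The siRNA sequences were not used here.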

Additional observations from a re-analysis of the deposited data

Results flagged for a closer look

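A called change with time in OHT, by limma's test of that change, is listed here for 26 genes. They were picked for it, as the greatest called changes by the rule for named genes or as changes given above. The 26 are not all named genes with a called change: CCN1 (-1.20 to 4 h, adjusted p = 3.05e-04) and PPM1D (0.51 to 8 h, adjusted p = 0.00983) also had one. On the brighter CCN1 probe set the change to 4 h was -0.99. The values are changes of the log2 difference between NFYB (Dharmacon) and NFYB (Ambion). From 0 h to 4 h it changed in the negative direction for SLC30A4, a zinc transporter (-2.48), the potassium channel gene KCNC4 (-2.23), PPP1R15A, a regulator of the eIF2 phosphatase (-1.63), ARL14, a small GTPase (-1.53), and ANKRD1, an ankyrin repeat protein (-1.5). It changed in the positive direction for the transcription factors SOX4 (1.4) and FOXF1 (1.09), the potassium channel genes KCNK10 (1.3) and KCNH2 (1.27), and PTPRA, a receptor phosphatase (1.14). From 0 h to 8 h the changes were negative for SLC30A4 (-2.28), KCNC4 (-2.06), NACA4P (-2.05), BCL2A1 (-2.03) and STARD13 (-2), and positive for SORBS3, an adhesion adaptor (2.21), EGR4, an immediate-early transcription factor (2.15), KCNK10 (1.66), CDKN1C, a CDK inhibitor (1.61), and GPRC5C (1.61). The other changes listed were given above, for TNFRSF11B (-1.08 to 4 h and -1.17 to 8 h), ZBTB20 (-1.28 and -1.11) and PTX3 (-1.55 to 8 h). To 4 h they were those of MYC (-1.23), JUN (-0.832), FOSL1 (-0.713), DUSP1 (-0.749), DUSP5 (-0.886) and NR4A2 (0.88).

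PPP1R15A read 97.7, 115 and 95.6 at 0 h, 174, 147 and 128 at 4 h and 132, 103 and 142 at 8 h with NFYB (Dharmacon), against 53.4, 66.4 and 53.2 at 0 h, 286, 238 and 249 at 4 h and 212, 196 and 122 at 8 h with NFYB (Ambion). The Dharmacon arrays were the higher ones at 0 h and the lower ones at 4 h. EGR4 read 18, 11.5 and 24.2 at 0 h, 268, 357 and 299 at 4 h and 367, 391 and 359.9 at 8 h with NFYB (Dharmacon), against 81.4, 42.1 and 38 at 0 h, 382, 309.7 and 396 at 4 h and 259, 298 and 199 at 8 h with NFYB (Ambion), and was the lower with NFYB (Dharmacon) at 0 h and the higher at 8 h. Some of these values rest on dim signals at 0 h, where SLC30A4 read 9.64, 32.2 and 20.0 with NFYB (Dharmacon) and 4.52, 1.42 and 5.55 with NFYB (Ambion), and KCNC4 54.4, 58.8 and 63.2 and 16.7, 12 and 11.9. NACA4P varied widely between arrays of 1 group, with 3258, 7233 and 2110.4 at 4 h with NFYB (Dharmacon). Brighter probe sets of PPP1R15A (-0.39, adjusted p = 0.566) and EGR4 (0.83, adjusted p = 0.477) and a dimmer one of SORBS3 (0.31, adjusted p = 0.646) were not called. For the change to 4 h, dimmer probe sets not called included those of NR4A2 (0.66, adjusted p = 0.755, and 0.47, adjusted p = 0.501). Others were of KCNH2 (0.87, adjusted p = 0.48) and JUN (-0.69, adjusted p = 0.306). Of 21 alternative settings, left-out arrays included, the call was lost in 15 for ARL14, 14 for NACA4P and for TNFRSF11B to 4 h, 12 for FOXF1 and for PTPRA, 10 for KCNC4 to 4 h, 9 for STARD13, 8 for SLC30A4 to 4 h and at most 7 for each of the others.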

How the results depend on the processing

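An offset of 16, quantile normalization, the upper 60% by signal and the replicate block kept each count of calls within 1.5 times its value. Without a variance trend, 343 probe sets were called for the change from 0 h to 8 h. Fitted on only the groups compared, the counts were 833 at 0 h, 551 at 4 h, 33 for the change from 0 h to 4 h and 228 for that to 8 h. The methods' t-test at their threshold (unadjusted p under 0.001) called 132, 94 and 174 probe sets at 0 h, 4 h and 8 h on linear signal and 147, 94 and 181 on log2 signal, and after Benjamini-Hochberg adjustment 1, 0 and 0 on linear and 0, 2 and 2 on log2 signal. Limma gave 4411, 4220 and 4716 at an unadjusted p under 0.05 at the same times.

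With 1 array or 1 replicate number left out, the counts ran from 683 to 1680 at 0 h, 716 to 1461 at 4 h, 502 to 2110 at 8 h and 2270 to 3917 in the mean of the 3 times, from 14 to 135 for the change to 4 h and 20 to 1201 for that to 8 h. They ran from 3898 to 5541 for the control siRNAs, 3289 to 4963 for the NFYB siRNA difference minus the control siRNA difference, 4033 to 5628 for NFYB (Dharmacon) against control (Dharmacon), 2445 to 4068 for NFYB (Ambion) against control (Sigma) and 3451 to 5388 for the pooled NFYB siRNAs against the pooled controls.

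Of 4906 values of named genes under the alternatives, 4587 kept direction and side of the threshold, 300 lost the call, 11 gained it and 8 changed sign, none of them called. The sign changes were FOLH1 at 0.0354, 0.151 and 0.0281 without replicate 1 of NFYB (Ambion) at 0 h, 4 h and 8 h and 0.107 without replicate 2 of NFYB (Dharmacon) at 8 h, and 4 genes when a replicate number was left out, with ranges of -0.411 to 0.253 for FOLH1, -0.269 to 0.072 for CDHR1, -0.057 to 0.12 for PRKCZ and -0.135 to 0.0241 for NFYA. The cause was not tested. Gene list counts under quantile normalization and the offset, added after seeing the data, stayed within 1.5 times; with the mean of all probe sets the lists MHC class I and II, NF-kB targets and E2F and Rb family had 1, 2 and 3 calls.

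Same-numbered arrays of the NFYB siRNAs deviated together in 3 of 9 pairs (correlations of -0.028 to 0.104), so the numbers were not taken to pair them. With the replicate number as a block 1917, 1814 and 2067 probe sets were called at the 3 times, 3870 in the mean, 150 for the change to 4 h and 630 for that to 8 h.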
